A study of Mus musculus with 384 samples.

Results

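The PU.1 subfamily of Ets transcription factors has 3 genes in the mouse, namely Spi1 (which encodes PU.1 and is named Sfpi1 in the older annotation used here), Spib and Spic. Accessible chromatin around these genes was described in 1 mouse breast tumor measured by Pi-ATAC, a method that records antibody staining and transposase-accessible DNA in the same fixed single cells. The tumor came from an MMTV-PyMT mouse of 3 months of age, a model in which the mammary tumor virus promoter drives a viral oncogene in the mammary epithelium. Its cells were stained for EpCAM, an epithelial adhesion protein, and for the leukocyte surface protein CD45, and were placed in 4 plates of 96 wells. In the paper, CD45+ cells were a small part of the stained tumor cells. Among the single cells that passed its filter, they slightly outnumbered EpCAM+ cells. The pooled cells therefore do not mirror the make-up of the tumor. The labels gave 1 group and no stain result for a well, so no value below separates EpCAM+ from CD45+ cells. The authors deposited 1 list of 50000 accessible windows for all wells together, each 500 bp wide and centred on the point of highest signal, in mouse build mm9. A window counted for a gene when its centre lay within 50 kb of any of the gene's annotated transcription start sites, and as a promoter window when it lay within 1 kb. By this rule 24 of the 50000 windows fell around the 3 genes. The list held no score, count or replicate, so every value below is a position, a number of windows or a share, without a test between conditions. A window that many cells opened moderately and one that few cells opened widely cannot be told apart in a pooled list.

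Ets factors bind DNA through a conserved domain that recognizes a GGAA core, and PU.1, Spi-B and Spi-C prefer a purine-rich stretch before that core. PU.1 is required for macrophages, neutrophils and B cells, Spi-B acts in B cells, plasmacytoid dendritic cells and intestinal M cells, and Spi-C is needed for the iron-recycling macrophages of the splenic red pulp. In the mouse, transcription of Spi1 depends on its proximal promoter and on an upstream regulatory element that PU.1 itself and the leukemia-associated factor RUNX1 bind. The files hold no position for that element, so no window was assigned to it.

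The 3 loci differed in where their windows lay. Spi1 had 11 windows within 50 kb, 6 of them closer to a start site of Spi1 than to any other protein-coding gene, and 2 of these were promoter windows. Spib had 10 windows, of which 1 lay nearest to Spib, inside the gene, and 0 were promoter windows. Spic had 3 windows, with 0 nearest to it and the closest at 43.3 kb. In all, 7 of the 24 windows lay nearest to a member of the subfamily, while 13 lay within 1 kb of a start site of another gene. Of 22350 protein-coding genes, 43.5% had a promoter window, 63.6% had a window nearest to them within 50 kb and 84.6% had any window within 50 kb, so Spi1 fell in all of these shares, Spib in the last 2 and Spic in the last alone.

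**Figure D1:**
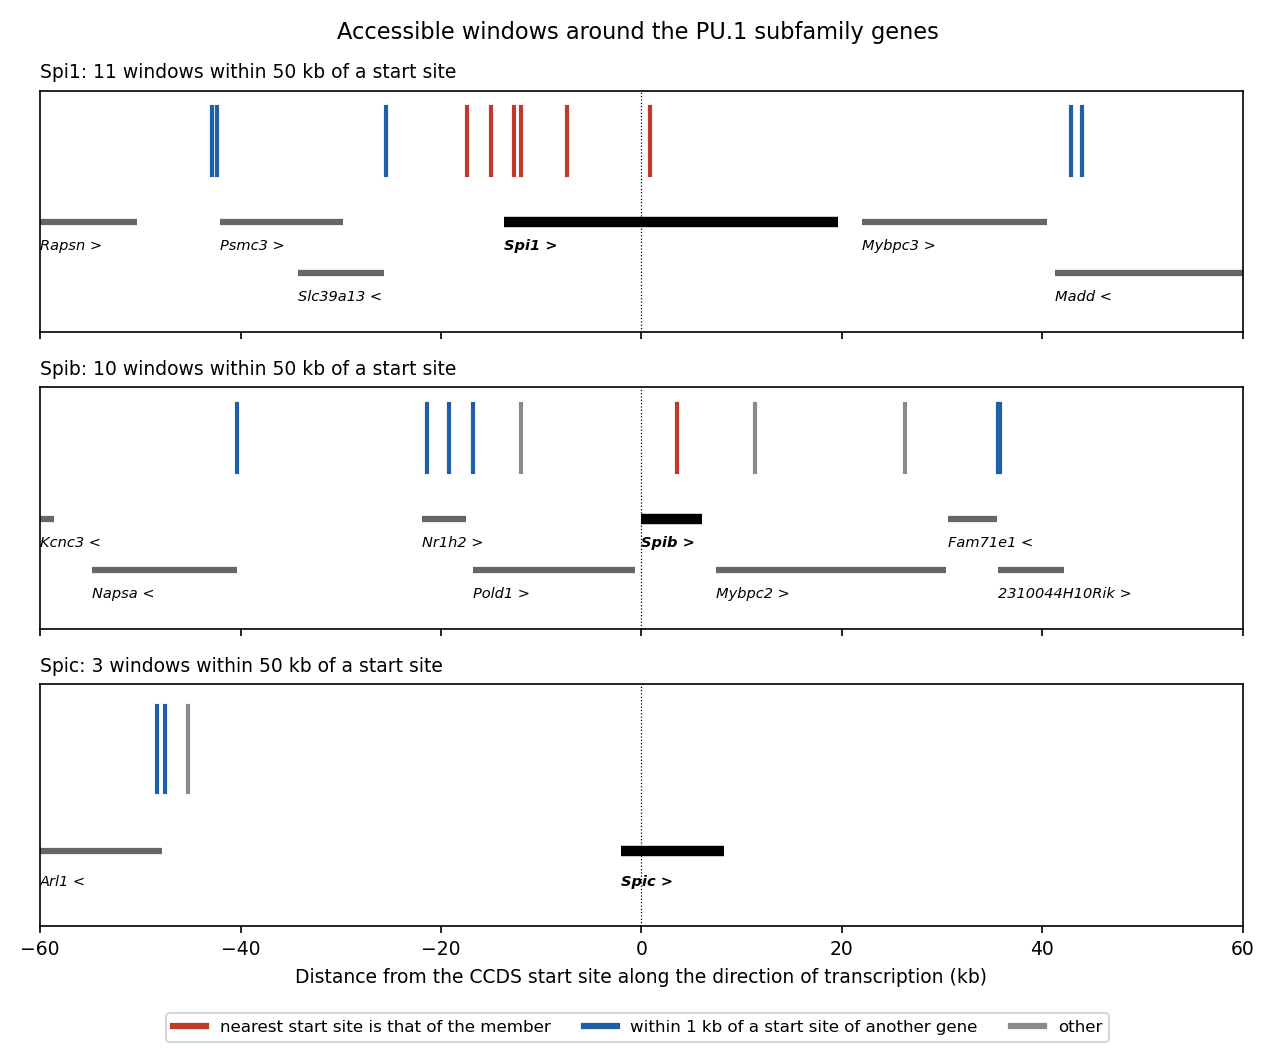
Positions of the windows (vertical bars) around Spi1, Spib and Spic, in kb from the start site of the transcript in the consensus coding set (CCDS), drawn along the direction of transcription with gene bodies below (> reads the same way as the member, < the opposite way). Red bars are nearest to the member (6 for Spi1, 1 for Spib, 0 for Spic), blue bars lie within 1 kb of a start site of another gene (5, 6 and 2) and grey bars are the rest (0, 3 and 1).

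The sequences below come from the 7 windows nearest to a member and from the single distal window near Spic, and are the stretches that hold most of the consensus words described further on. They are mm9 reference sequence read 5′ to 3′ on the strand of the gene, in lower case with the matched words in capitals. A word on the opposite strand appears as its reverse complement. The stretch of window 6 is shown for its repeat and holds no capitals.
Spi1 window 4, chr2:90918574-90918634, plus strand (RUNX word, then 2 IRF words on the other strand): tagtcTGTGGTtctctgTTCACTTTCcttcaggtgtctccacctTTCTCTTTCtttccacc
Spi1 window 5, chr2:90921123-90921203, plus strand (PU.1 and Spic word, short PU.1 word, RUNX word): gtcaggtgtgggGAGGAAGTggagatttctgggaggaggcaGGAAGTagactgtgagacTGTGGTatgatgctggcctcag
Spi1 window 5, chr2:90921233-90921303, plus strand (TEAD word on the other strand): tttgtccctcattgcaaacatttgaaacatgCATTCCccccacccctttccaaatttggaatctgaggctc
Spi1 window 6, chr2:90923496-90923586, plus strand (tandem repeat): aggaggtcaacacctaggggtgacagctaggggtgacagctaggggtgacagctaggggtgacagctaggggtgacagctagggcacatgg
Spi1 window 7, chr2:90924177-90924227, plus strand (TEAD word): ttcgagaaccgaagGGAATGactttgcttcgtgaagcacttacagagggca
Spi1 window 7, chr2:90924347-90924397, plus strand (RUNX word on the other strand): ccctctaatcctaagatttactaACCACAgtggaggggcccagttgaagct
Spi1 window 8, chr2:90928886-90928936, plus strand (CEBP word): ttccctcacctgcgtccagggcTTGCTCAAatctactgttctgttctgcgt
Spi1 window 9, chr2:90937238-90937288, plus strand (short PU.1 word in intron 1): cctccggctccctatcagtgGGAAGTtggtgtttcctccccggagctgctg
Spib window 6, chr7:51784066-51784125, minus strand (short PU.1 words on both strands): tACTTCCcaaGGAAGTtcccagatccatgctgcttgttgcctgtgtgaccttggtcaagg
Spic window 3, chr10:88190901-88190951, minus strand (AP-1 word): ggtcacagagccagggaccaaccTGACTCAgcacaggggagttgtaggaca
Spic window 3, chr10:88191176-88191226, minus strand (AP-1 word): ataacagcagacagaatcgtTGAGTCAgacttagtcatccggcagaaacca

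Spi1 (ENSMUSG00000002111) lies on the plus strand of chromosome 2 at 90922547 to 90955913. Its 4 annotated transcripts start at 2 places. The CCDS transcript, which makes PU.1, starts at 90936253, and a putative coding transcript starts close by at 90936937. Another putative coding transcript and a noncoding one start 13.7 kb further upstream, at 90922547 and 90922565. The 6 windows nearest to Spi1 ran from 17.4 kb upstream of the CCDS start to 0.9 kb inside the gene.

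Only 1 of the 6 touched the first exon of the CCDS transcript. Window 9 (90936883 to 90937382) was centred 880 bp inside the CCDS start and 0.20 kb inside the start of the nearby putative transcript, with 53.6% of its bases in exons. It holds the end of the first exon, where the PU.1 coding sequence begins, and the start of intron 1. With 63.4% GC and 17 CpG dinucleotides it was richer in GC than the median window (49.8% GC, 7 CpG) and close to the median window within 1 kb of a start site in GC (59.6%), but with fewer CpG than that median (31).

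The other 5 windows lay between 7.5 and 17.4 kb upstream of the CCDS start. Windows 4 (90918569 to 90919068) and 5 (90921023 to 90921522) were intergenic, 17.4 and 15.0 kb upstream. Windows 6 (90923256 to 90923755), 7 (90923947 to 90924446) and 8 (90928531 to 90929030) lay at 12.7, 12.1 and 7.5 kb, within an intron of the upstream transcripts. Window 6 was the second promoter window of Spi1, since its centre was 941 bp from the nearest upstream start, and at the CCDS start alone the gene kept 1 promoter window. Window 4 stood apart in composition, with 65.2% GC and 32 CpG, where the medians of windows within 1 kb of a start are 59.6% and 31, although the closest start of a protein-coding gene was 3728 bp away. Windows 5 to 8 held 5 to 8 CpG each, near the genome-wide median of 7.

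The remaining 5 windows around Spi1 sat at neighbouring genes. Windows 1 (90893156 to 90893655) and 2 (90893695 to 90894194) were 0.76 and 0.22 kb from a start of Psmc3, a proteasome ATPase, and window 3 (90910470 to 90910969) was 0.15 kb from a start of Slc39a13, a zinc transporter. Windows 10 (90978818 to 90979317) and 11 (90979935 to 90980434) were 0.34 and 0.77 kb from starts of Madd, a regulator of Rab GTPases. Rapsn, which clusters acetylcholine receptors at the muscle synapse, and Mybpc3, a cardiac sarcomere protein, are the other neighbours of Spi1 and had 0 promoter windows.

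Spib (ENSMUSG00000008193) occupies 51781365 to 51787441 on the minus strand of chromosome 7, with 1 start site at 51787441 shared by its 3 transcripts. Its only own window was window 6 (51783626 to 51784125), which lay 3565 bp downstream of the start in an intron, with 49.8% GC and 10 CpG. The stretch around the Spib start, from window 5 at 12.0 kb upstream to window 6 at 3.6 kb downstream, was free of windows for 15.6 kb. Of 49980 gaps between consecutive windows, 54.3% were as long, and the median gap was 18.8 kb. A gap picked because it holds a given site tends to be longer than the gaps of the list, so this share is only descriptive. Of the genes, 49.2% had their closest window as far away as Spib or farther.

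Other genes had 6 of the 10 windows around Spib at their promoters. Window 1 (51827585 to 51828084) lay at Napsa, an aspartic protease. Windows 2 (51808597 to 51809096) and 3 (51806398 to 51806897) lay at Nr1h2, the oxysterol receptor LXR-beta, and window 4 (51803964 to 51804463) at Pold1, the catalytic subunit of DNA polymerase delta. Windows 9 (51751625 to 51752124) and 10 (51751427 to 51751926) overlapped each other, came from 1 called peak and lay at 2310044H10Rik. The 3 others were window 5 (51799236 to 51799735) in an intron of Pold1, window 7 (51775880 to 51776379) over a coding exon of Mybpc2, a skeletal muscle myosin-binding protein, and window 8 (51760931 to 51761430) in an intron of Mybpc2. Of the 6 neighbours of Spib, 5 had a promoter window, all but Mybpc2.

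Spic (ENSMUSG00000004359) occupies 88137517 to 88147760 on the minus strand of chromosome 10 and has starts at 88139636, 88145768 (CCDS) and 88147760. Its 3 windows formed a cluster on the upstream side. Windows 1 (88193825 to 88194324) and 2 (88193054 to 88193553) lay 0.04 and 0.30 kb from a start of Arl1, a small GTPase of the Golgi, and held 45 and 19 CpG. Window 3 (88190806 to 88191305) was intergenic, 2547 bp from Arl1 and 43296 bp from the nearest start of Spic. Around the Spic CCDS start no window was listed for 205.3 kb, from 45.3 kb upstream to 160010 bp downstream. Of the gaps in the list, 4.87% were as long. Since this gap was picked because it holds a given site, that share can make it look rarer than it was. Of all genes, 17.3% had their closest window as far away or farther.

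The number of windows within 50 kb was set against that of all 22350 protein-coding genes, whose quartiles were 1, 3 and 6. As many windows as around Spi1 (11) were found around 6.85% of genes, as many as around Spib (10) around 9.2%, and as many as around Spic (3) around 58.6%. Counting the windows nearest to a gene, quartiles 0, 1 and 2, the 6 of Spi1 were reached by 5.88% of genes and the 1 of Spib by 63.6%. Promoters of other genes add to the wider count, and Spi1 had 5 neighbouring genes with a start within 50 kb, Spib 6 and Spic 1, where the median gene had 2. Among genes with the same number of neighbours, the median count within 50 kb was 5 for Spi1 (1440 genes), 6 for Spib (874 genes) and 3 for Spic (4828 genes), and the shares with as many windows became 12.2%, 20.6% and 53.4%.

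**Figure D2:**
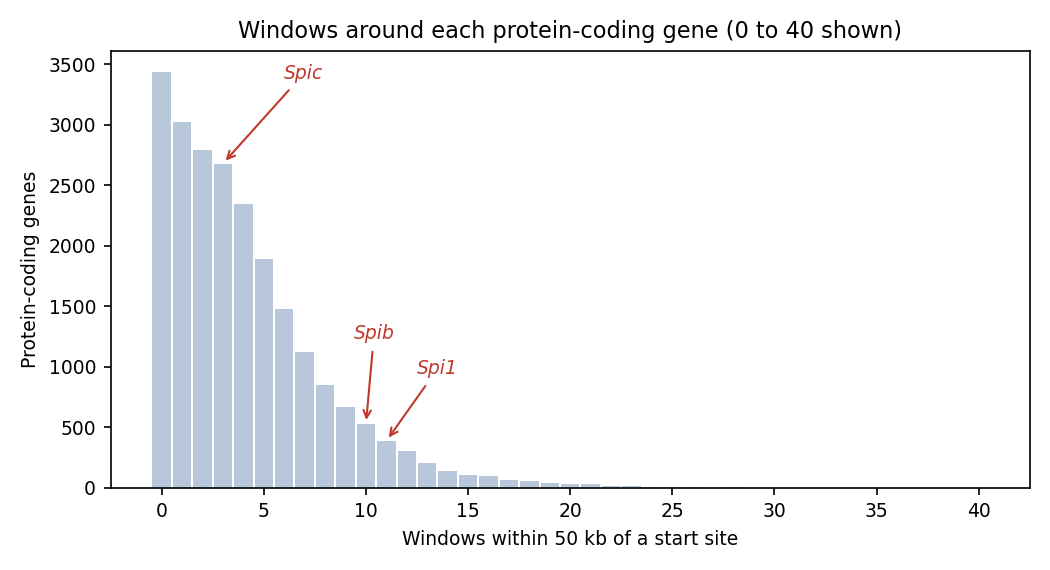
Number of protein-coding genes (vertical axis) by how many windows lay in reach, 50 kb from a start site (horizontal axis, 0 to 40 shown), with arrows at the 3 members. Spi1 at 11 and Spib at 10 lie beyond the upper quartile of 6, while Spic at 3 lies at the median.

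Chromosome 7, which carries Spib, was also one of the chromosomes with more windows in the list. Peak names carry a running number, so peaks that were called but did not enter the 50000 windows leave missing numbers. On chromosome 7, 41.5% of called peaks were kept (95% interval 40.6 to 42.5%), against 24.6% on chromosome 2 and 25.7% on chromosome 10. Chromosomes 8, 9 and X also stood high, at 51.9, 50.6 and 46.3%, and the other 16 chromosomes ranged from 23.6 to 26.5%. Chromosomes 7, 8, 9 and X come last in the running numbers. Why they kept more was not tested, and the list holds no q by which its ranking could be checked. Set against genes of its own chromosome alone, the window count of Spib was reached by 21.7% of genes (median 4), that of Spi1 by 2.98% (median 3) and that of Spic by 59.3% (median 3). The part of chromosome 7 in the count of Spib was not tested otherwise.

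The running numbers also give how many called peaks lay between windows. Such a stretch begins and ends at a kept window, so its kept share is raised by the way it is counted and was not set against that of the chromosome. From window 4 to window 9, the stretch that holds all windows nearest to Spi1, 6 of 8 called peaks were kept over 18.3 kb. In the next 41.9 kb, across the rest of Spi1 and Mybpc3 to window 10, 8 called peaks were missing from the list. Between windows 6 and 7 of Spib 3 numbers were missing over 7.7 kb.

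The missing numbers also bear on whether a weaker peak was called at the promoter of Spib, but cannot show this for Spic. Between windows 5 and 6 of Spib 0 numbers were missing, so the 15.6 kb around its start held no separate called peak outside the list. In the 205.3 kb around the Spic start 14 numbers were missing, and their positions within that stretch cannot be read from the list. A number can also be missing because a peak was filtered for another reason, and further summits of a kept peak leave no gap in the numbers.

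Short consensus words of 14 factor families were searched in each window on both strands, to describe which letters the windows of the 3 genes hold. The PU.1 and Spic word GAGGAAGT occurred in 1 of the 24 windows and in 4.96% of all 50000 windows. That window was window 5 of Spi1, 15.0 kb upstream of the CCDS start, with the word at 90921135 to 90921142. The same stretch held the shorter word GGAAGT at 90921164 to 90921169 and the RUNX word TGTGGT at 90921182 to 90921187, all on the plus strand. The word GGAAGT, which is contained in GAGGAAGT and in the Ets word CCGGAAGT, occurred in 7 of 24 windows (5 of Spi1, 1 of Spib and 1 of Spic) and in 33.6% of all windows. Of the 7 windows nearest to a member, 4 held GGAAGT. Spib window 6 held it 3 times, and the sequence printed above shows a pair of these on opposite strands with 3 bases between them.

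Words of factors that regulate or partner PU.1 were also searched in the 24 windows. The RUNX word TGTGGT occurred in 10 of the 24 windows and in 33.4% of all, with 3 of the windows nearest to Spi1 (4, 5 and 7) among the 10. The IRF word GAAANNGAA occurred in 5 (13.3% of all), with 2 matches in window 4 of Spi1, at 90918591 to 90918599 and 90918618 to 90918626, beside the RUNX word at 90918579 to 90918584. The composite Ets-IRF word GGAANNGAA occurred in 2 (14.2%), both at Spib, in windows 5 and 8, which lie in Pold1 and Mybpc2. The CEBP word TTGCNNAA occurred in 5 (17.3%), and the only one nearest to a member was TTGCTCAA in window 8 of Spi1. The GATA word AGATAA occurred in 4 (17.7%), which include windows 4 and 8 of Spi1.

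Words of other families were counted in the same way. The AP-1 word TGANTCA occurred in 2 of the 24 windows (18.4% of all) and in 0 of the 7 nearest to a member, while the distal window 3 of Spic held it at 88190922 to 88190928 and 88191200 to 88191206. The SP and KLF word GGGCGG occurred in 13 windows (25.5% of all) and in 3 of the 7 nearest to a member. Of windows over 1 kb from a start site, 11.5% held this word. Promoters of other genes, within 1 kb of which 13 of the 24 windows lay, weigh on its count. The TEAD word GGAATG occurred in 5 (24.3%), 2 of them windows 5 and 7 of Spi1, and the NFI word TTGGCA in 3 (23.6%). The Ets word CCGGAAGT (2.49% of all) and the octamer ATGCAAAT (2.29%) were in 0 of the 24 windows, and the CRE word TGACGTCA (1.37%) was in 1, at 2310044H10Rik. These are matches of letters and do not show binding.

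**Figure D3:**
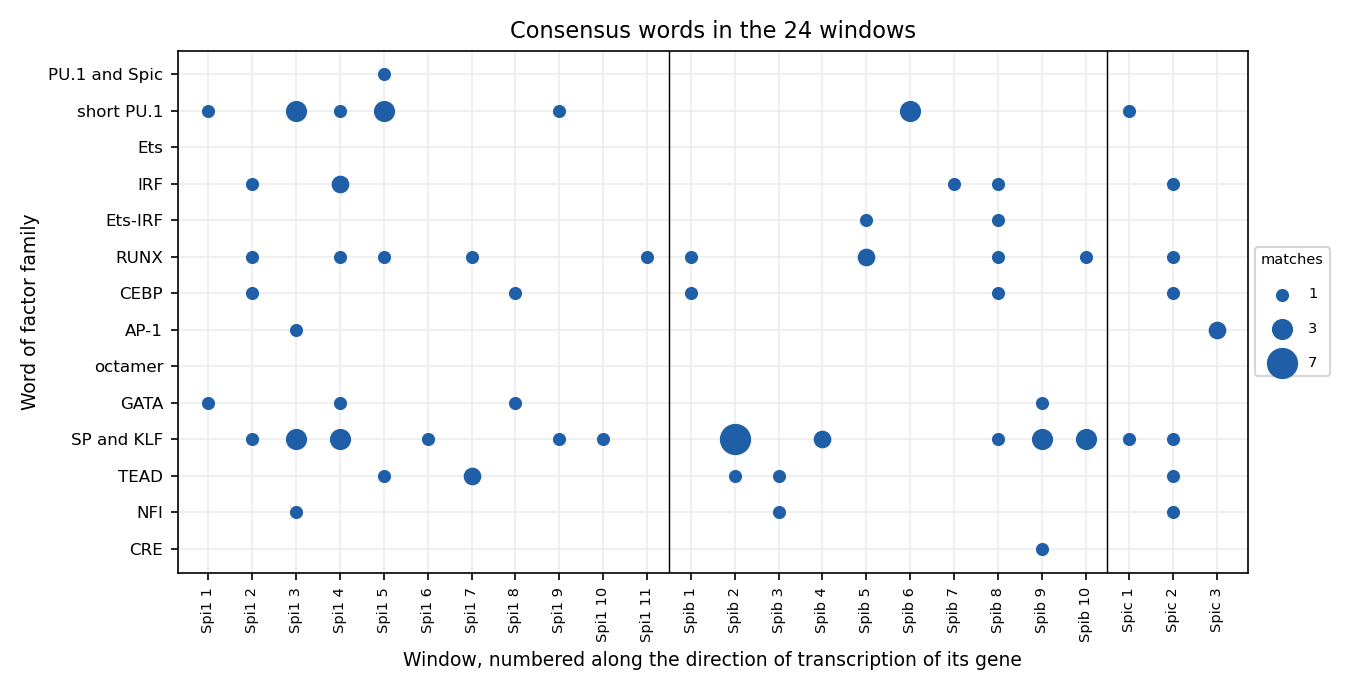
Matches of 14 consensus words (rows) in the 24 windows (columns, numbered along each gene's direction of transcription, with vertical lines between genes), with circle area in proportion to the number of matches. The PU.1 and Spic word has a single circle, in Spi1 window 5, and the short PU.1 word fills 7 columns.

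Within the Ets family the 3 members were spread out. Of 26 Ets genes, Ets1 (17 windows nearest to it), Etv6 (14), Fli1 (13), Elf4 (12), Elf2 (10) and Elk3 (9) had more windows nearest to them than Spi1, and Elf1 had the same number (6). For Spib 19 of the genes had more, and for Spic 23. Within 50 kb, 6 genes had more windows than Spi1, 8 more than Spib and 19 more than Spic. The genes with most, Erf (19) and Ets1 (17), lie on chromosomes 7 and 9, and Fli1 and Elf4 lie on chromosomes 9 and X. Chromosomes 7, 9 and X kept 41.5, 50.6 and 46.3% of their called peaks, against 24.6% on chromosome 2 of Spi1. A promoter window was found for 16 of the 23 Ets genes outside the subfamily (69.6%, interval 47.1 to 86.8%) and for 1 of the 3 members (33.3%, interval 0.84 to 90.6%), and these intervals overlap. Ehf, an Ets factor of epithelial cells, had 0 windows within 50 kb, and Elf5, a factor of the mammary luminal lineage, had 6 and none at its promoter.

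**Figure D4:**
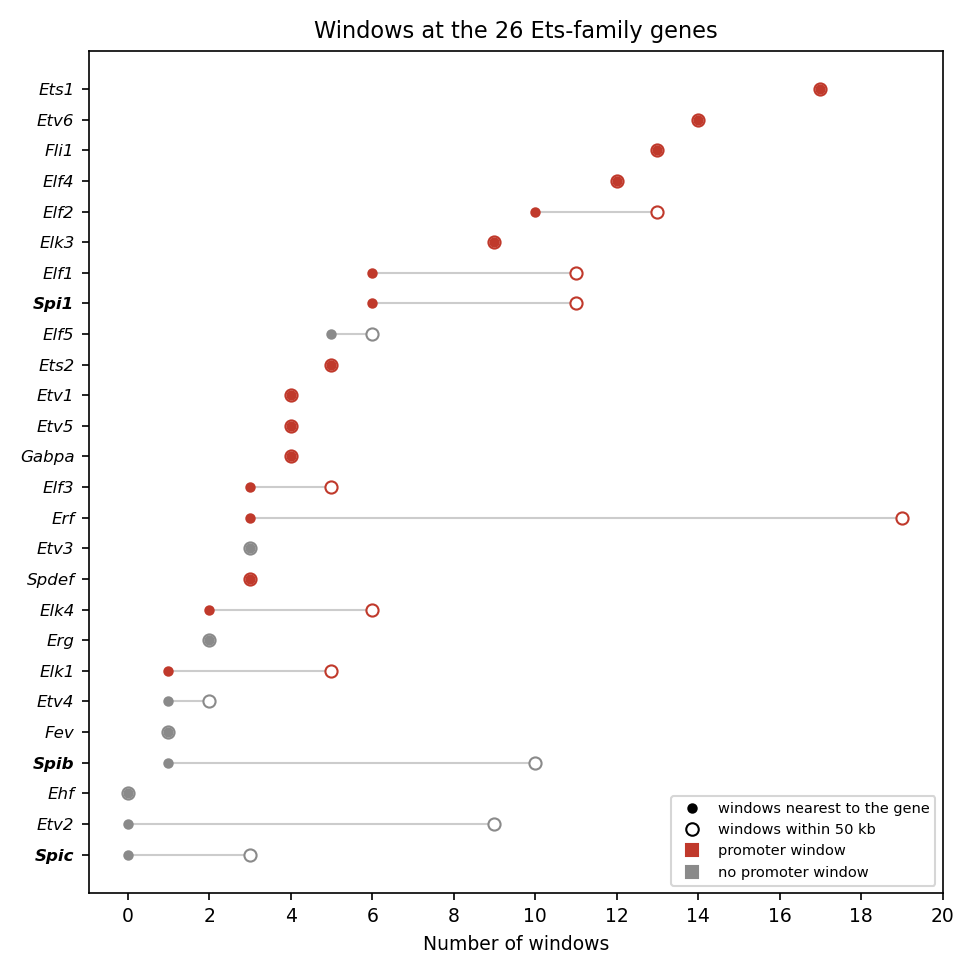
Number of windows (horizontal axis) at each of the 26 Ets genes, ordered by windows nearest to the gene (filled circles), with windows within 50 kb as open circles, in red where the gene had a promoter window and grey where it had none. Spi1 stands at 6 and 11 in red, Spib at 1 and 10 and Spic at 0 and 3 in grey.

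Of 19 genes other than Spi1 that regulate or partner PU.1, 15 had a promoter window (78.9%, interval 54.4 to 93.9%, against 43.5% of all protein-coding genes), with a median of 6 windows within 50 kb. The 4 without were Gata1, Gata2, Gfi1b and Myb, factors of erythroid, mast cell, megakaryocyte and progenitor programs. With Spi1 included, the share of the list was 80.0%, and 65.0% at the 5′ end of each gene alone. Among the IRF factors, several of which bind DNA together with PU.1 or Spi-B, 7 of 9 had a promoter window (interval 40.0 to 97.2%), and Irf8, a partner of PU.1 in macrophages and dendritic cells, had the most windows within 50 kb (24). Irf3 and Irf5 had none at the promoter. Of the 7 genes listed as C/EBP factors, which include Cebpz by its name only, 6 had a promoter window (interval 42.1 to 99.6%). The exception was Cebpe, a factor of late granulocytes, and Cebpg had the most windows (16). Both of these intervals include the 43.5% of all genes. Irf8 lies on chromosome 8 and Cebpg on chromosome 7, where 51.9 and 41.5% of called peaks were kept. Irf4, Irf8, Cebpa and Cebpb stand in more than 1 of these lists.

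Of the genes that PU.1 is known to control in myeloid cells, 8 of 20 had a promoter window (40.0%, interval 19.1 to 63.9%, against 43.5% of all genes). The 8 included Cd14 and Tlr4 of lipopolysaccharide sensing, Csf2ra of the GM-CSF receptor and the Fc receptors Fcgr2b and Fcgr3. The others were Fcer1g, an Fc receptor signaling chain, the adaptor Tyrobp and the lysozyme Lyz2. The share was 25.0% when promoter windows had to lie within 500 bp of a start. Fcer1g had the most windows within 50 kb (11). Csf1r, the macrophage growth factor receptor, had 2 windows within 50 kb and none at its promoter, and Emr1, which encodes F4/80, had 1 window.

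Genes linked to Spib and Spic were described in the same way. Of 15 genes of B cells, plasmacytoid dendritic cells and M cells, 6 had a promoter window (40.0%, interval 16.3 to 67.7%), namely Bcl6, Bst2, Pou2af1, Sox8, Tcf4 and Tnfaip2. Cd79a, a chain of the B cell antigen receptor complex, had no promoter window but 7 windows in reach, and Ms4a1, which encodes CD20, had 0 in reach. Of 12 genes of iron-handling macrophages 8 had one (66.7%, interval 34.9 to 90.1%). They were the heme-responsive repressor Bach1, heme oxygenase Hmox1, biliverdin reductase Blvrb, the ferritin chains Fth1 and Ftl1, the metal transporter Slc11a1 and the LXR genes Nr1h2 and Nr1h3. Slc40a1, the iron exporter ferroportin, had 0 windows within 50 kb, and Cd163 and Vcam1 had 1 each. Hmox1 and Bst2, with the most windows of their lists (17 and 12), lie on chromosome 8, where 51.9% of called peaks were kept.

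**Figure D5:**
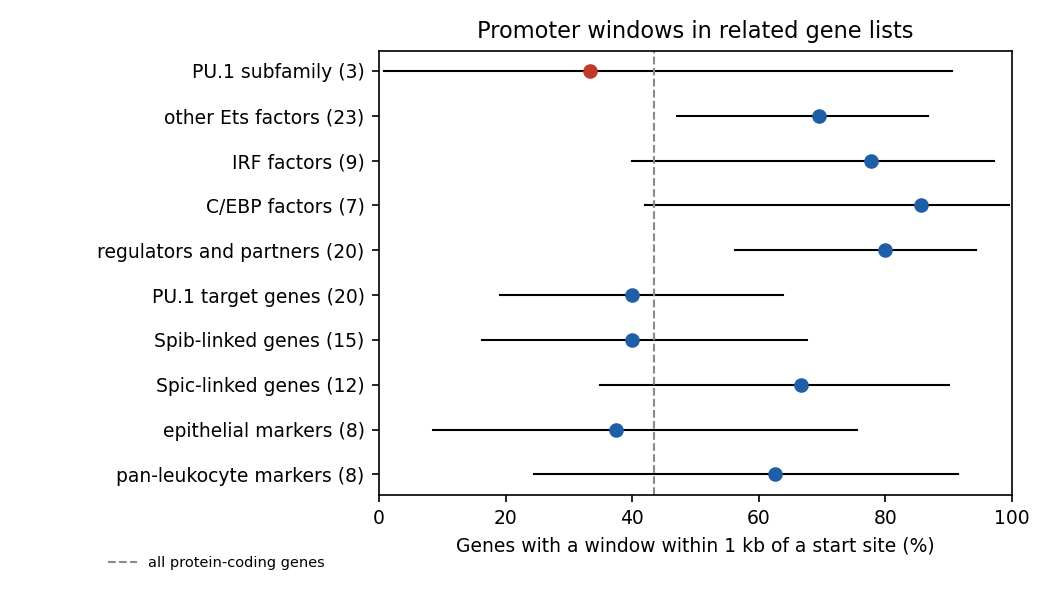
Share of genes with a promoter window (horizontal axis, percent) in 10 gene lists, with the number of genes in parentheses and lines for exact binomial 95% intervals. The dashed line is the 43.5% of all protein-coding genes, which 8 of the 10 intervals cross, while those of the other Ets factors and of the regulators and partners of PU.1 lie above it. At the 5′ end of each gene alone, the shares of these lists fell to 60.9% and 65.0%. Those shares were not set against all genes at that setting. The lists were chosen with earlier results of these data known and some share genes, so an interval above the line is a description and not a test.

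Of 8 epithelial markers 3 had a promoter window (Cdh1, Cldn4 and Muc1; 37.5%, interval 8.52 to 75.5%), and of 8 pan-leukocyte markers 5 (Coro1a, Dock2, Laptm5, Vav1 and Was; 62.5%, interval 24.5 to 91.5%). Both intervals include the 43.5% of all genes, and the pan-leukocyte share was 37.5% at 500 bp and at the 5′ end of each gene alone. The genes of the stained proteins, Epcam with 9 windows within 50 kb and Ptprc, which encodes CD45, with 4, had none within 1 kb of a start. The closest window lay 1255 bp from a start of Epcam, just past that limit, and 16678 bp from a start of Ptprc. Which of these cells opened the windows of Spi1 was not tested, since the list holds no value per cell.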

How the data were processed

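Single cells of 1 tumor were measured by Pi-ATAC. What the authors deposited has the unit other, positions of called windows without a value. Per the methods and labels, reads were mapped to mm9 with Bowtie2 2.1.0 and duplicates were removed with Picard 1.79. Cells were aggregated and summits were called at q 0.05 with MACS2 (version: not given in the sources used here). Summits were widened to 500 bp and, by the methods, the 50000 with the lowest q were kept. The kept shares differed between chromosomes, as given above, and the list holds no q to check this ranking. Pooling and this ranking favour regions open in many cells, and depth could not be read from the list.

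Windows were placed by their centres on the NCBIM37 genome and the GENCODE vM1 annotation, both mm9, counting from 1. The distance behind "nearest" is that to the closest start of a protein-coding gene. For shares, "as many" counts genes with that number of windows or more. Consensus words were searched on both strands. The 95% intervals (Clopper-Pearson, exact) cover only counting error. Python 3.11.15, numpy 2.4.6, pandas 2.3.3, scipy 1.17.1 and matplotlib 3.10.9 were used, and the counting was checked on made-up positions with known answers. The RefSeq promoter table (used for starts only) placed Spib and Spic 0 bp from their CCDS starts and Spi1 was not matched in it.

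Named are all windows of the 3 genes, their neighbours with a start within 50 kb, and in each of the 10 lists up to 8 genes with a promoter window, those without any window, and the gene with most, with Csf1r, Ptprc and Epcam always. Further list genes without a promoter window (such as Gata1, Irf3, Cebpe, Emr1, Cd79a, Cd163 and Elf5) were chosen after their values were seen. All 125 list entries matched, 2 of them (Spi1, listed in 2 lists) by an older symbol. The members, lists and words were chosen with earlier results of these data known. Alternatives changed the reach, the promoter distance, the starts used, the genes of the background, the region for kept peaks and the word.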

Additional observations from a re-analysis of the deposited data

How the results depend on the processing

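Of 88 alternatives computed, 65 stayed within 1.5 times the reported count or, for a share of a list or of peaks, within its exact interval, which is wide for short lists, and 23 moved. Every alternative for the share of genes with as many windows was counted as moved. This held even where the change was well under 1.5 times, as for Spic from 58.6% to 59.3%. The list shares that stayed within their intervals but changed by over 1.5 times were that of PU.1 target genes with a promoter window, from 40.0% to 25.0% at 500 bp, and that of pan-leukocyte markers, from 62.5% to 37.5% at 500 bp and at the 5′ end of the gene alone. With a reach of 10 kb in place of 50 kb, Spi1 had 6 windows, Spib 1 and Spic 0. With 25 kb they had 7, 6 and 0, and with 100 kb Spib had 16. The share of genes with as many windows was 5.05% for Spi1, 6.95% for Spib and 49.9% for Spic among all annotated genes, and 2.98%, 21.7% and 59.3% among protein-coding genes of the same chromosome. Among genes with as many neighbours, an alternative chosen after seeing the data, it was 12.2%, 20.6% and 53.4%. The number of promoter windows of Spi1, 2 as reported, was 1 at 500 bp, 4 at 2 kb, 1 at the 5′ end of the gene alone and 1 at the CCDS start alone, the last also chosen after seeing the data. Under each promoter distance and choice of starts tried, Spi1 was the only member with a promoter window. The share of called peaks kept was counted between the outermost windows of a gene, which fixes both ends as kept. The resulting shares cannot be compared with those of the chromosomes (24.6% for Spi1, 41.5% for Spib, and 25.7% for Spic, whose 3 windows gave 100%). The PU.1 and Spic word was in 0 of the 24 windows within the central 200 bp. The shorter word, searched over the whole window in its place, was in 7, and in 3 within the central 200 bp. No paired analysis was possible because the labels hold 1 group and the list pools all wells. Small numbers of windows limit every share given for a single gene, and a gene without a listed window may still have been open in cells too few to reach the list.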

Other observations

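Window 6 of Spi1, the second promoter window of the gene, holds next to its centre a perfect tandem repeat of a 13 bp unit, 71 bp long with 5.5 copies, at 90923509 to 90923579 of chromosome 2. Of all 50000 windows, 9.05% hold a perfect repeat of a unit of 10 to 20 bp in 3 or more copies, simple dinucleotide runs included. Among the 24 windows around the 3 genes, 5 hold one (windows 2, 4 and 6 of Spi1 and 1 and 7 of Spib). How many reads mapped uniquely to the repeat cannot be read from the list.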
